A study of Mus musculus with 18 samples.

Results

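The first response of mouse dendritic cells to lipopolysaccharide (LPS), the cell wall component of Gram-negative bacteria, was measured by setting the 3 arrays of cells exposed to LPS for 2 h against the 3 arrays of unstimulated cells. These are 6 of the 18 arrays of the series, 1 for each of 3 conditions at each time. All cells came from bone marrow of C57BL/6 mice aged 6 to 8 weeks, cultured for 7 to 10 days with supernatant of GM-CSF-transduced B16 tumour cells and used when over 90% carried CD11c. The conditions were wild type cells, wild type cells that received the calcium chelator EGTA (2 mM) with the LPS, and cells from Cd14-/- mice, which lack the surface protein that hands LPS to its receptor. Wild type cells, with or without EGTA, received 1 µg/ml of smooth LPS, and no concentration is given for the Cd14-/- cells. For the unstimulated array of the EGTA condition the title includes EGTA, but the protocol gives plating alone. Collection of the unstimulated cells came 24 h after plating, whereas for LPS no waiting time after plating is stated. An effect of LPS and one of time since plating therefore cannot be told apart. Separate cultures or animals are not named for any array, so p-values cover the scatter among these arrays alone, and that scatter may be technical.

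LPS is bound by TLR4 with its partner MD-2 (gene Ly96). TLR4 signals through the adaptors MyD88 and TRIF to the transcription factors NF-kB, AP-1 and IRF3. Primary response genes are those these factors switch on without new protein synthesis, and they include cytokines, chemokines and the inhibitors that shut NF-kB off again. Interferon beta made in this first wave acts back on the cells through STAT proteins and turns on a secondary set of antiviral genes.

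Promoters of 6 genes whose transcripts rose, picked among those that held matches, show the elements that such factors can bind. They were taken from RefSeq (GRCm38.p6) as the 250 bases before the annotated start, written 5′ to 3′ on the gene's own strand. Capitals mark matches to the NF-kB consensus, the AP-1 site TGANTCA and the interferon-stimulated response element (ISRE), GAAA and GAAA with NN between them, each searched on both strands, and TATAAA on the gene's strand. The first 4 encode an NF-kB inhibitor, a pair of chemokines and a cytokine, and the last 2 encode interferon beta and a gene that interferon induces.
Nfkbia, chr12:55492648-55492897, minus strand: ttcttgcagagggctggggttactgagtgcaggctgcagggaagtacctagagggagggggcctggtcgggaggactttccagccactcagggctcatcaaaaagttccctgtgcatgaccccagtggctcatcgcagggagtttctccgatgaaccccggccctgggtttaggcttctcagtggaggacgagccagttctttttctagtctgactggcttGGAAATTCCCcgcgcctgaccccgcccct
Cxcl2, chr5:90903649-90903898, plus strand: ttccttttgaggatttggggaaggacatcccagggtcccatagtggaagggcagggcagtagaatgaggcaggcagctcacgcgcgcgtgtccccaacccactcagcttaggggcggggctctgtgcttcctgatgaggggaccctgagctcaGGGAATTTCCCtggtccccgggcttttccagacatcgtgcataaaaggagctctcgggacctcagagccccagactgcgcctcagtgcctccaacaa
Cxcl10, chr5:92348890-92349139, minus strand: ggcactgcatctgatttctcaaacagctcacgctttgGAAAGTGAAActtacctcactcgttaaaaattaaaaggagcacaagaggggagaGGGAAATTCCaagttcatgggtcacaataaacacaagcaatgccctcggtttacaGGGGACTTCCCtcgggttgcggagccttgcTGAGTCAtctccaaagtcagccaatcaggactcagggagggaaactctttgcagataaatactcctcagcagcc
Il6, chr5:30012864-30013113, plus strand: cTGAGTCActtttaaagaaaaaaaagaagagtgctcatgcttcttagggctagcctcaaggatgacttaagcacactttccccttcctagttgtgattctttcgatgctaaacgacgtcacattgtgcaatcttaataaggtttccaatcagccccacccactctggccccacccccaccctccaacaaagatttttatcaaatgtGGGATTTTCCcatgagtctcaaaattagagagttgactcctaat
Ifnb1, chr4:88522795-88523044, minus strand: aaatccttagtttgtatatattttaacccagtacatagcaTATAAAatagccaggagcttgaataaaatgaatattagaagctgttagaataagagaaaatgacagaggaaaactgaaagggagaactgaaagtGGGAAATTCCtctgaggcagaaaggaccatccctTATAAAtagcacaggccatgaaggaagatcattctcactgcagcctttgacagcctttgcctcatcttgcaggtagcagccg
Ifit1, chr19:34640639-34640888, plus strand: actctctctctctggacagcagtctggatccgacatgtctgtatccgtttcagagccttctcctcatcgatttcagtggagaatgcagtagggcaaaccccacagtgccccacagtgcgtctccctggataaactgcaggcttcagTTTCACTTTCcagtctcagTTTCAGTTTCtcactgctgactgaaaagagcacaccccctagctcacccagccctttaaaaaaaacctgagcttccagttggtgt
Nfkbia held 1 match to the NF-kB consensus, 29 to 20 bases before the start. Cxcl2 held a pair of overlapping matches between 97 and 87 bases before the start, and Il6 held 1 at 44 to 35 bases and an AP-1 match at 249 to 243. Cxcl10 held NF-kB matches at 159 to 150 and at 104 to 94 bases, an AP-1 match at 74 to 68 and an ISRE match at 213 to 204. Ifnb1 held 1 NF-kB match at 116 to 107 bases and TATAAA at 210 to 205 and at 82 to 77. Ifit1 held no NF-kB match in this window and 2 ISRE matches, at 104 to 95 and 85 to 76 bases. In the same window Tnf, Il1b, Il2, Ptgs2 and Socs3, which also rose, held no NF-kB match. Fos, which fell, and Ier3, which changed by 0.03, held 1 each. A match is a description of the letters and no measure of binding.

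At 2 h the messages that rose most encoded secreted signals. Levels are quantile-normalised log2(intensity + 16), differences between them are log2 changes, and errors are standard errors of the limma fit. Tnf, the cytokine that spreads the inflammatory signal, stood at 5.31 (wild type), 6.52 (EGTA) and 6.01 (Cd14-deficient) without LPS and at 13.25, 12.72 and 13.24 after 2 h. The groups of 3 arrays did not overlap, and the difference was 7.13 ± 0.34 (adjusted p = 3.47e-10), about 140-fold on this scale. The neutrophil chemokine Cxcl1 stood at 5.71, 5.53 and 5.06 without LPS and at 12.84, 12.03 and 12.84 at 2 h (7.14 ± 0.43, adjusted p = 6.03e-09). The T cell chemokine Cxcl10 went from 6.31, 6.30 and 6.18 to 13.29, 13.31 and 12.58 (6.79 ± 0.17). These were the 3 largest rises among 7056 genes tested.

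The next rises were of further mediators, an antiviral gene, a non-coding transcript and a nuclear cofactor. Il6 was at 6.96, 7.02 and 6.60 without LPS and at 13.64, 13.44 and 13.38 with it (6.63 ± 0.16, adjusted p = 1.51e-13). Il23a, the specific subunit of the cytokine IL-23, was at 4.78, 4.27 and 4.35 and then at 11.05, 10.77 and 11.11 (6.51 ± 0.37). In neither gene did the levels of unstimulated and LPS arrays overlap. Ptgs2, the inducible cyclooxygenase of prostaglandin synthesis, rose by 5.94 ± 0.18, the chemokine Ccl1 by 5.86 ± 0.50 and the vasoactive peptide gene Edn1 by 5.76 ± 0.26. The non-coding transcript U90926 rose by 5.65 ± 0.39, Il1a by 5.62 ± 0.07 and Nfkbiz, a nuclear cofactor of NF-kB, by 5.53 ± 0.20. Il1a had the smallest p of the genes tested (adjusted p = 1.24e-17), with unstimulated arrays at 7.58 to 7.70 and LPS arrays at 13.19 to 13.36. Ifit1, an antiviral gene, rose by 6.34 ± 0.35, with the Cd14-deficient array at 10.01 and the wild type arrays at 12.55 and, with EGTA, 12.46.

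Falls were smaller. Klf4, a transcription factor of monocyte and macrophage differentiation, stood at 10.68, 10.93 and 11.19 without LPS and at 7.59, 6.98 and 7.82 at 2 h (-3.47 ± 0.29, adjusted p = 2.79e-07). It was followed by Fbxo32, a ubiquitin ligase subunit (-3.19 ± 0.30), the cannabinoid receptor Cnr2 (-2.86 ± 0.30) and Mnt, a partner of Max that opposes Myc (-2.63 ± 0.26). Cnr2 passed the filter only through the unstimulated arrays, where it was high (8.32, 8.05 and 8.32). Its test is therefore a description and no independent support. A second probe set of Mnt, near the floor at a mean level of 4.66, moved by 0.33. The homeobox factor Hhex fell by 2.43 and thrombomodulin (Thbd) by 2.26 on the log2 scale. Ccr2, the receptor that draws monocytes to inflamed tissue, was at 10.12, 10.01 and 10.91 and then at 8.03, 7.92 and 8.31 (-2.26 ± 0.22, adjusted p = 1.14e-06). The other large falls were those of Hic1 (-2.24), Rab7b (-2.19), a small GTPase that promotes TLR4 degradation, Klf10 (-2.17), the AP-1 subunit Fosb (-2.16) and the chemokine receptor Cxcr4 (-2.11). For all 24 genes, picked by their changes on these same arrays, the 2 h and unstimulated arrays did not overlap, as in 45% of all genes tested.

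**Figure D1:**
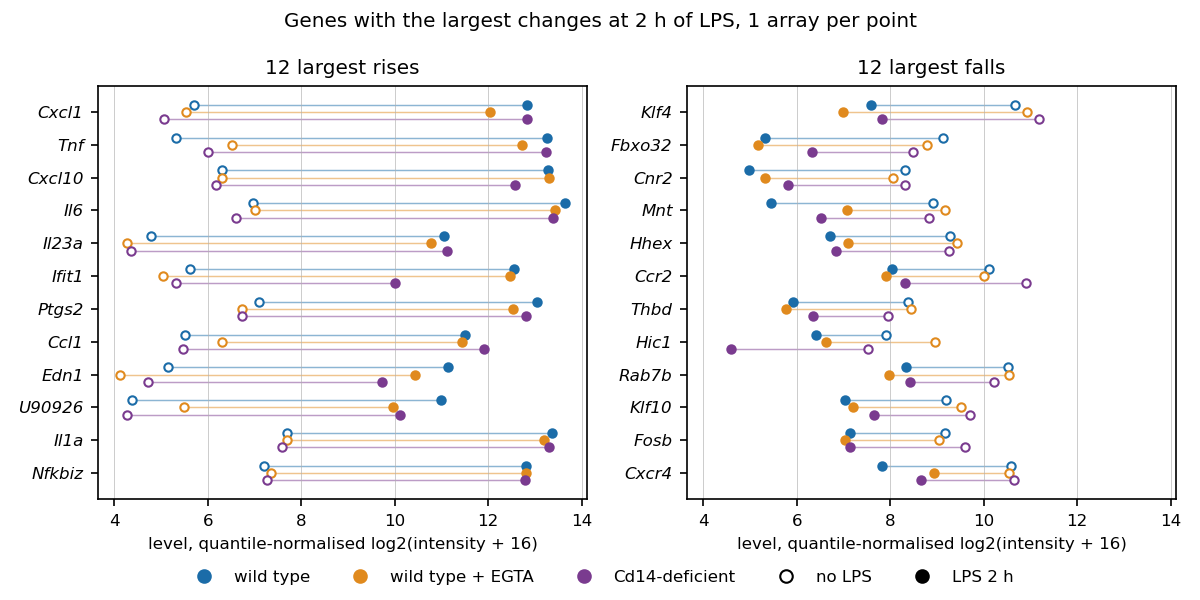
Levels (quantile-normalised log2(intensity + 16), x axis) of the 12 genes that rose most and the 12 that fell most at 2 h of LPS, 1 point per array, with colours for the conditions, open points without LPS and filled points at 2 h. Each rise ran from levels of 4 to 8 to levels near 10 or above, while Klf4, Cxcr4 and Rab7b began above 10 and fell to between 6.98 and 8.94.

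Over all genes, 2917 of 7056 passed the test (41.3%), of which 1155 were higher at 2 h (16.4% of those tested) and 1762 lower (25%). That split rests on the scaling: it was 1864 against 789 with arrays centred on their medians and 583 against 2775 with no scaling, where the median change of all genes was 0.11 and -0.32 in place of -0.09. Large changes leaned the other way from the split of the main scaling. Among called genes 393 rose and 168 fell at least 2-fold, 126 rose (1.79% of genes tested) and 15 fell (0.213%) at least 4-fold, and 25 rose at least 16-fold. The 2 h and unstimulated arrays did not overlap for 3173 genes (45%).

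The unstimulated EGTA array stood apart. The 1st percentile of its deposited intensities was 3.63 and it had 3311 probe sets under an intensity of 16, against 0.774 and 0.923 and 5126 and 4635 on the other unstimulated arrays. Without the EGTA pair of arrays 2209 genes passed (932 higher, 1277 lower), and without the wild type pair 1142 were lower. RNA integrity numbers of the 6 arrays lay between 9.5 and 10. Cd14 followed the labels, at 12.65 and 12.53 in unstimulated wild type cells without and with EGTA, 13.23 and 13.02 at 2 h, and 5.40 and 4.35 in the Cd14-deficient cells. Among dendritic cell markers, Cd74 (13.52 to 13.68), H2-Ab1 (12.80 to 13.31) and Itgax, which encodes CD11c (12.07 to 12.40), were high on all 6 arrays, while Flt3 was too dim to be tested. Zbtb46 (7.17 to 8.46) and Ciita (7.12 to 8.64) lay nearer the array medians of 7.02 to 7.07. Of 9 dendritic cell markers 8 were above the array median on at least 1 of the 6 arrays. Their summed intensity was 34000 to 36400 without LPS and 33300 to 38000 at 2 h. Granulocyte markers were present too: 12 of 13 on the array lay above the array median on at least 1 of the 6 arrays, and their summed intensity was 39500 to 42900 without LPS and 35700 to 40000 at 2 h. Macrophage markers summed to 38400 to 44000 and 32800 to 37200, and none of the 8 T and NK cell markers on the array was above the median. The part of other cell types in the changes was not tested, and in such mixed cells fewer cells of a type and less RNA per cell cannot be told apart.

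The genes are described below by their role, in lists drawn from knowledge of the pathway. The lists were chosen with earlier results of these data known, so their counts are no independent support. Each list is described by its counts and its median. Over all genes tested 16.4% rose, 25% fell and the median was -0.09.

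Of 18 tested proinflammatory cytokine genes 17 rose and none fell, with a median change of 2.80. Tnfsf9, the ligand of the costimulatory receptor 4-1BB, rose by 5.34 ± 0.16, Il12b, a subunit shared by IL-12 and IL-23, by 4.30 ± 0.17, and Lif by 2.88 ± 0.23. Il1b was already at 10.12, 10.76 and 10.23 without LPS and reached 13.65, 13.58 and 13.66, a change of 3.26 ± 0.11. Il18 was the member that did not pass the test, at 8.13, 8.56 and 9.21 and then 8.39, 8.46 and 9.06.

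Il2, which encodes the T cell growth factor interleukin 2, was induced from near the floor of the arrays. Its levels were 4.50, 4.71 and 4.20 without LPS and 8.80 (wild type), 6.81 (EGTA) and 8.51 (Cd14-deficient) at 2 h (3.57 ± 0.42, adjusted p = 9.84e-06). Il2 passed the filter only through the wild type and Cd14-deficient arrays at 2 h, where it was high. Its p-values are therefore a description and no independent support. The EGTA array was the lowest of the LPS arrays, but the difference in induction from wild type (-2.20 ± 0.77) did not pass the test (adjusted p = 0.424). Ifnb1, which encodes interferon beta, was at 5.44, 5.98 and 5.55 and then at 10.34, 9.91 and 8.15 (3.81 ± 0.37, adjusted p = 1.24e-06). The anti-inflammatory cytokine Il10 rose by 2.68 ± 0.40. Of 10 tested colony-stimulating and growth factors 5 rose and 1 fell. The growth factor of the cultures themselves, GM-CSF (Csf2), rose by 3.32 ± 0.31. Vegfa, the angiogenic growth factor, fell by 1.60, from 9.28 to 9.88 without LPS to 7.82 to 8.20 at 2 h.

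Of 12 tested CC chemokines 8 rose and none fell. Ccl4 and Ccl3 rose by 3.65 ± 0.13 and 3.21 ± 0.10. The dendritic cell chemokines Ccl22 and Ccl17 were near the top of the scale before LPS, at 12.26 to 12.52 and 12.92 to 13.11, and rose by 0.84 and 0.56. Ccl24 was higher at 2 h in all 3 conditions, by 0.86 (wild type) to 2.46 (EGTA), and its change of 1.57 ± 0.90 did not pass the test. Of the interferon-inducible CXC chemokines all 4 rose: Cxcl10, Cxcl9 (3.89), Cxcl11 (3.70) and Cxcl16 (0.80). A second, dim probe set of Cxcl11, at a mean level of 5.52, moved by 0.79.

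Receptors did not follow their ligands as a group. Of 9 tested chemoattractant receptors 5 fell and 1 rose, with a median of -0.34, although with median centring 3 fell, 3 rose and the median was 0.10. The single rise was Fpr2, a receptor of formyl peptides, from 7.93, 8.16 and 9.58 to 10.63, 11.26 and 11.37 (2.53 ± 0.22). Ccr2, Cxcr4 and the complement receptor C3ar1 (-1.56 ± 0.21) fell, and Ccr7, the lymph node homing receptor, was at 11.02 to 11.34 without LPS and 11.27 to 11.62 at 2 h (0.22 ± 0.09, adjusted p = 0.0654). Ccr7 passed as a rise with median centring (0.61, adjusted p = 7.78e-04) and without the wild type pair (0.33, adjusted p = 0.0312). Of 20 cytokine receptor genes 8 fell and 3 rose (median -0.18), against 25% and 16.4% of all genes, so the rises were near that share. With median centring 2 fell and 7 rose, and the median was 0.13. Il15ra (2.59 ± 0.35) and the TNF receptor Tnfrsf1b (1.45 ± 0.17) rose, and the interferon gamma receptor chain Ifngr1 fell by 0.98.

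The LPS receptor itself changed unequally. Tlr4 stood at 10.59, 10.37 and 10.50 without LPS and between 8.45 (EGTA) and 9.29 (Cd14-deficient) at 2 h (-1.57 ± 0.14, adjusted p = 3.50e-07), while Ly96 rose from 8.64 to 8.86 to levels of 9.42 to 9.65 (0.78 ± 0.07). Cd14 did not pass the test (0.01 ± 0.32). Its changes were 0.58 in wild type, 0.50 with EGTA and -1.04 in the Cd14-deficient cells, where the gene is near the floor. Ikbke, a kinase upstream of IRF3, rose by 2.25 ± 0.22 and the kinase Irak1 fell by 0.57. Among the other Toll-like receptors Tlr2 rose by 1.84 ± 0.17, from 10.23, 9.85 and 11.43 to 12.37, 12.10 and 12.56. In all, 6 of 11 tested members of the TLR4 complex and its adaptors rose and 2 fell.

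Every tested subunit and inhibitor of NF-kB rose, 11 of 11, with a median of 1.70 (9 of 11 with no scaling and 10 of 11 without the EGTA pair). Nfkbia, which encodes the inhibitor IκBα, was high before LPS, at 12.21, 12.30 and 12.28, and reached 13.22, 13.28 and 13.09 (0.93 ± 0.06, adjusted p = 9.58e-09). The groups did not overlap. That was the brightest of 4 Nfkbia probe sets, and the others changed more, by 2.01 and 1.98 (mean levels 12.63 and 12.37) and by 1.60 (mean level 8.41). The inhibitor Nfkbie rose by 2.20 ± 0.09, the cofactor Bcl3 by 2.74 ± 0.15 and the subunits Nfkb2 by 2.17, Rel by 1.70, Relb by 1.70 and Rela by 0.79. Of 9 tested feedback and adaptor genes of the pathway, only some of which act on ubiquitin chains, 8 rose and none fell. Tnfaip3, which encodes the deubiquitinase A20, went from 7.49, 6.92 and 7.47 to 11.86, 11.72 and 11.86 (4.52 ± 0.17, adjusted p = 1.62e-11), and its partner Tnip1 rose by 2.26 ± 0.12.

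Immediate early factors, which are induced and lost within an hour or so in many cells, were divided. Of 18 tested AP-1, Egr and related genes 8 fell, 3 rose and 7 did not pass the test (median -0.18). With median centring 5 fell and 4 rose, and the median was -0.01. Fos was at 10.40, 9.72 and 10.15 without LPS and at 8.28, 7.98 and 8.36 with it (-1.89 ± 0.15, adjusted p = 9.89e-08). Egr2 fell by 1.75, Myc by 1.74, Nr4a2 by 1.25 and Egr1 by 0.77, and the fall of Egr1 did not pass the test with median centring (-0.51, adjusted p = 0.105) or without the wild type pair (-0.69, adjusted p = 0.0559). The small Maf factor Maff rose by 1.95 ± 0.15. Atf3, which restrains inflammatory genes, was at 9.69, 9.90 and 10.17 and then at 10.78, 10.07 and 9.95, and did not pass the test (0.35 ± 0.21, adjusted p = 0.209). Atf3 passed as a rise with median centring (0.63, adjusted p = 0.024) and without the Cd14-deficient pair (0.63, adjusted p = 0.0316).

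Krüppel-like and lineage factors split, with 9 of 20 falling and 6 rising. Cebpa, needed for granulocyte and monocyte precursors, fell by 1.81 ± 0.19, and Id1 (-1.68), Id3 (-1.51) and Runx1 (-1.42) fell too. Zeb2 rose from 8.73, 8.78 and 8.30 to 10.36, 10.21 and 10.31 (1.69 ± 0.13). Of 14 interferon regulatory factors and STAT genes 8 rose and 1 fell, with Stat5a from 8.71, 9.02 and 8.58 to 11.72, 11.77 and 11.32 (2.83 ± 0.09). Irf1 rose by 1.91 ± 0.19.

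Other brakes on the response diverged. Among regulators of messenger RNA decay, Zc3h12a, which encodes the ribonuclease Regnase-1, rose by 3.37 ± 0.19. The decay factors Zfp36 (tristetraprolin) and Zfp36l2 fell by 1.03 and 1.98. Zfp36 stood at 10.70, 10.35 and 10.88 without LPS and at 9.56, 9.33 and 9.94 at 2 h, with no overlap. Of the other Zfp36l2 probe sets, one at a mean level of 6.73 moved by -0.78 and one near the floor, at 5.13, by 0.22. Among MAP kinase phosphatases and related brakes Dusp14 (2.73 ± 0.21), Dusp2 (2.67 ± 0.19) and Dusp16 (1.51) rose, and Dusp6 (-1.96 ± 0.18) and Dusp1 (-1.18 ± 0.25) fell. The changes of Dusp1 were -1.73 in wild type cells, -1.50 with EGTA and -0.30 in Cd14-deficient cells. The cytokine signalling inhibitor Socs3 rose by 1.50 ± 0.10. Cflar, an inhibitor of caspase 8, rose from 8.26 to 8.52 to levels of 11.20 to 11.49 (2.98 ± 0.09).

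**Figure D2:**
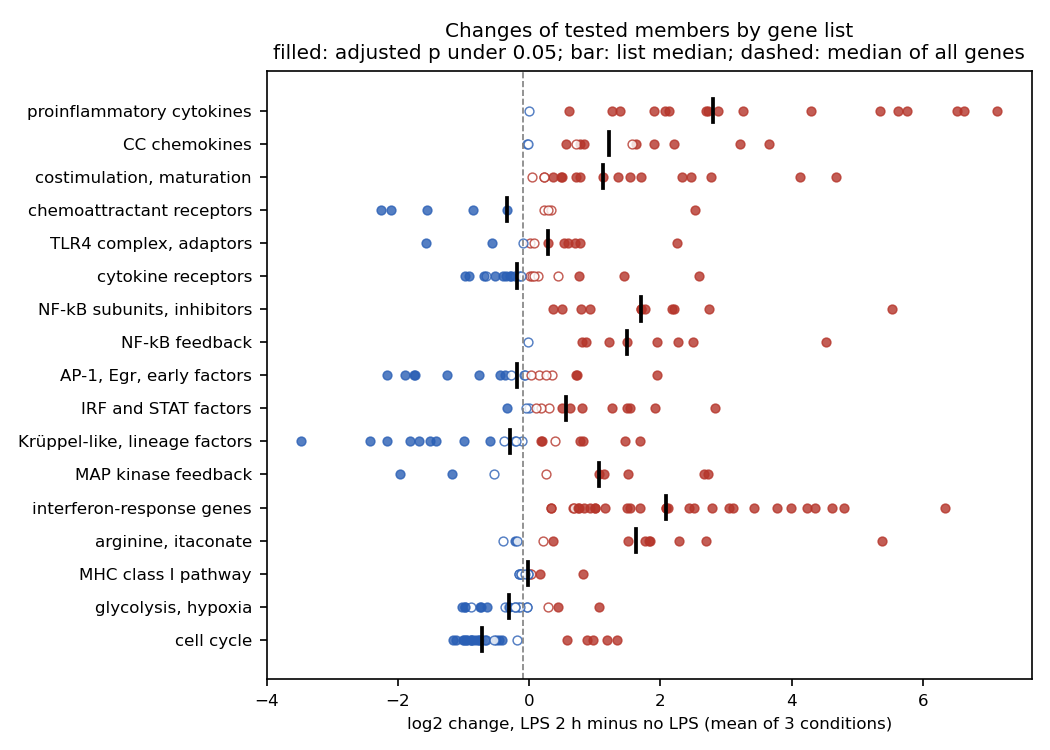
Log2 change (2 h minus no LPS, mean of 3 conditions, x axis) of every tested member of 17 gene lists, with filled points for an adjusted p under 0.05, a bar at each list's median and a dashed line at the median of all genes, -0.09. The medians of the cytokine, NF-kB and interferon-response lists lay at 2.80, 1.70 and 2.08, and that of the cell cycle list at -0.72. The medians of the lists for chemoattractant receptors, cytokine receptors, the MHC class I pathway and glycolysis changed sign with median centring.

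Genes of T cell stimulation had begun to rise. Of 17 genes of costimulation and maturation 14 rose and none fell (median 1.13). Cd40, the receptor for T cell help, went from 7.35, 7.14 and 6.90 to 11.93, 11.95 and 11.51 (4.67 ± 0.08, adjusted p = 5.81e-16). Cd70, a ligand of the T cell receptor CD27, rose by 4.13 ± 0.21 and the adhesion molecule Icam1 by 2.77 ± 0.11. The classical costimulators Cd86 and Cd80 were at 10.48 to 10.93 and 9.43 to 9.69 before LPS and rose by 0.77 and 0.72. Of 11 tested genes of the MHC class I pathway 2 rose and 1 fell, with a median of -0.02 (6 rises and none falling with median centring). Tap1, a subunit of the peptide transporter, was at 9.06, 8.96 and 8.73 without LPS and at 10.03, 10.05 and 9.12 at 2 h (0.82 ± 0.12, adjusted p = 7.27e-05). The mean of the Tap1 probe sets, of which the others were dim, did not pass (0.28, adjusted p = 0.154). The other rise was that of Tapbp (0.17) and the fall that of Psmb8 (-0.16), which turned to 0.22 with median centring. H2-K1 lay between 12.85 and 13.09 on all 6 arrays, near the top of the scale.

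Effector enzymes rose in part. Acod1, which makes the antimicrobial metabolite itaconate, was at 8.38, 7.73 and 6.75 and then at 13.08, 13.04 and 12.88 (5.38 ± 0.23). The cystine transporter Slc7a11 rose by 2.69 ± 0.14, mitochondrial superoxide dismutase (Sod2) by 1.76 ± 0.08 and Arg2 by 1.84 ± 0.14. Nos2, the inducible nitric oxide synthase, was at 4.17, 4.17 and 4.14 without LPS and at 6.84, 6.73 and 4.40 at 2 h, so that the Cd14-deficient array barely left the floor (1.83 ± 0.56, adjusted p = 0.0164). Ch25h, which makes the antiviral oxysterol 25-hydroxycholesterol, rose by 3.87 ± 0.18, and the lectin Clec4e (Mincle) by 3.78 ± 0.05.

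Glycolytic and hypoxia genes had not risen together at 2 h. Of 19 tested, 7 fell and 2 rose (median -0.30), against 25% and 16.4% of all genes. With median centring 4 fell, 5 rose and the median was 0.07. Hexokinase 2 (Hk2) rose from 10.25, 10.25 and 9.82 to 11.29, 11.11 and 11.09 (1.06 ± 0.10). The hypoxia targets Pdk1 (-1.03 ± 0.19) and Bnip3 (-0.98 ± 0.24) fell. Cell cycle genes were lower, with 18 of 26 falling and 5 rising (median -0.72), and the median was negative under both other scalings (-0.52 and -0.95). Mcm6, a subunit of the replicative helicase, was at 10.19 to 10.61 and then at 8.97 to 9.54 (-1.16 ± 0.25, adjusted p = 0.00158). The 5 rises were those of Ccnd2 (1.34), Tyms (1.19), the cell cycle inhibitors Cdkn1b (0.98) and Cdkn1a (0.58), and Mki67 (0.88), whose arrays overlapped. A second probe set of Cdkn1b, dim at a mean level of 5.08, moved by -0.31, and with the mean of both the rise did not pass the test (0.33, adjusted p = 0.216).

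Promoters of the strongly induced genes differed in their letters from those of the rest, by counts alone. Shares were taken over genes with 1 start in RefSeq, 4574 of the genes tested, within 250 bases before to 50 after the start. The NF-kB consensus was found in 18 of 73 genes that rose at least 4-fold (24.7%), against 10.1% of all genes tested and 8.01% of all promoters. For ISRE the shares were 16.4%, 3.67% and 3.58%. TATAAA was in 21.9% of the genes that rose at least 4-fold, against 4.96% of all genes tested and 9.49% of all promoters, and TGANTCA in 17.8% against 5.18% and 7.98%. The ratio of observed to expected CpG dinucleotides had a median of 0.338 in those promoters and 0.801 over all genes tested, and it was under 0.4 in 57.5% and 11.4%. Genes that fell at least 2-fold had a median of 0.774. Genes that rose at least 4-fold and stood higher at 2 h than later held the NF-kB consensus in 9 of 26 promoters and ISRE in 1, while those lower at 2 h than later held them in 3 and 7 of 24.

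**Figure D3:**
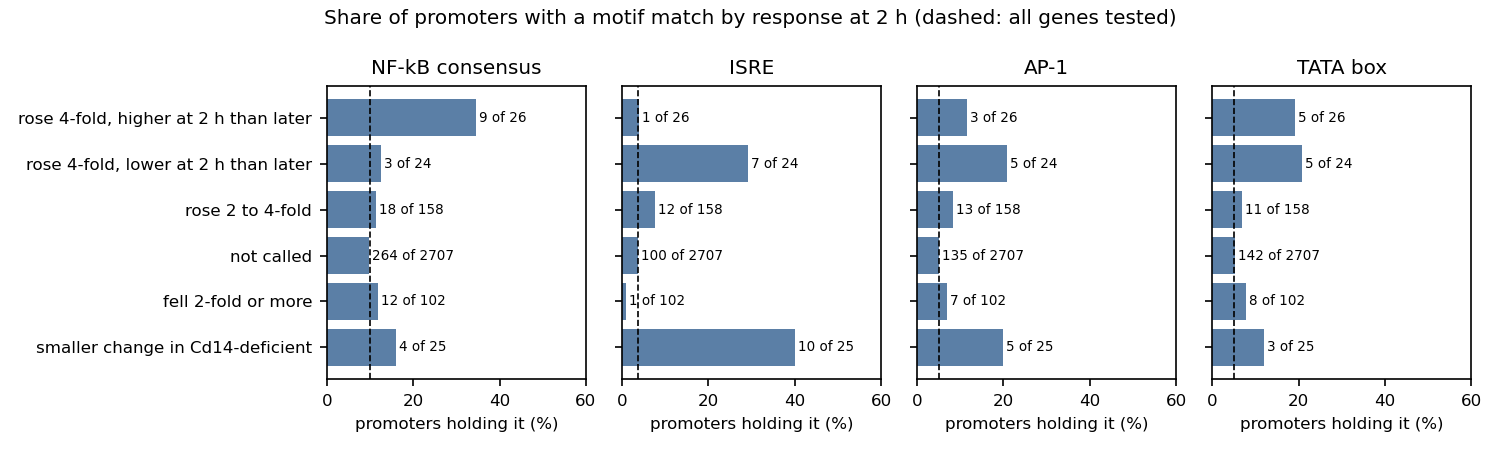
Share of promoters holding a match (x axis, percent) to the NF-kB consensus, ISRE, AP-1 site and TATA box for genes grouped by their response at 2 h, with the number of promoters beside each bar and a dashed line at the share over all genes tested. Among the groups shown, the NF-kB share was highest in genes that rose at least 4-fold and were higher at 2 h than later (34.6%). The ISRE share was highest in genes with a smaller signed change (2 h minus no LPS) in Cd14-deficient cells (40%).

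How far the response at 2 h was a passing one was asked by setting the 2 h arrays against the mean of 4, 6, 12 and 24 h, a contrast without the unstimulated arrays. Of 7056 genes 54.2% passed, 1804 being higher at 2 h than later (25.6%) and 2021 lower (28.6%). Of the 1155 genes that rose at 2 h, 336 were higher than later, 368 lower and 451 neither. Of the 1762 that fell, 629 were lower than later, 491 higher and 642 neither. Both contrasts use the 2 h arrays, so these counts are a description.

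Among genes higher at 2 h than later, Il2 had the largest difference, 3.66 ± 0.34 (adjusted p = 4.68e-07), but it was tested only because of its high 2 h arrays. From 8.80, 6.81 and 8.51 at 2 h it was at 4.76, 4.70 and 5.05 by 4 h, close to its unstimulated levels. Il23a (3.61 ± 0.29) declined over the day, in wild type cells from 11.05 at 2 h to 9.47, 7.76, 6.52 and 5.52. Ccl1 was higher at 2 h than later by 3.54 ± 0.39, but in Cd14-deficient cells it was at 12.37 at 4 h, above its 11.91 at 2 h. A630072M18Rik, an uncharacterised transcript, rose by 4.93 ± 0.13 at 2 h and stood 3.33 ± 0.10 above its later mean. Ifnb1 was 3.26 ± 0.29 above its later mean. Il1r2, Arg1 and Clec10a were also among the 8 largest differences, but none of the 3 had risen at 2 h. Clec10a, a lectin receptor, had fallen by 0.81 (adjusted p = 0.00661; -0.48 and adjusted p = 0.0967 with median centring). Il1r2, the decoy receptor for interleukin 1, was at 11.79, 11.74 and 12.25 at 2 h, against 11.76, 11.73 and 12.24 without LPS, and at 9.37, 9.52 and 9.37 at 4 h.

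Most interferon-response genes had risen at 2 h but stood below their later levels. Of 30 interferon-response genes 28 rose at 2 h (24 without the EGTA pair and 25 with no scaling), and 27 of 30 were lower at 2 h than later, with a median difference of -1.55. Ifit3 was at 6.84, 6.34 and 6.42 without LPS, 10.87, 11.01 and 8.02 at 2 h, and 13.03, 12.91 and 11.79 at 4 h. Some were nearer their later levels in wild type cells, with Ifit1 at 12.55 at 2 h and 13.19 at 4 h, and Ifih1 at 12.47 and 12.98. Genes with the largest shortfall at 2 h were Ms4a4c, a membrane protein gene (-4.70 ± 0.21 against later), complement factor B, Cfb (-3.69 ± 0.13), Tm4sf1 (-3.29), Slc1a2 (-3.21), Slfn4 (-3.17), Oas3 (-3.16), Ly6i (-3.13) and Vnn3 (-3.03). Of these Cfb, Slfn4, Ly6i and Vnn3 had risen at 2 h. Ms4a4c also passed (0.70 ± 0.27, adjusted p = 0.0475), but without the EGTA pair its change was 0.25 (adjusted p = 0.513) and without the wild type pair 0.56 (adjusted p = 0.243). Tm4sf1 and Slc1a2 had not passed the test at 2 h, nor had Oas3, whose changes were 1.43 in wild type cells, 1.00 with EGTA and -0.38 without CD14 (adjusted p = 0.0507). Oas3 passed without the Cd14-deficient pair (1.21, adjusted p = 1.35e-05), with median centring (0.73, adjusted p = 0.0306) and with log2(value + 64) (0.53, adjusted p = 0.0299).

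Of the falls, Klf4 was close to its later mean at 2 h (0.02 ± 0.23 against later). Ccr2 and Fosb were on the way down, 2.12 ± 0.17 and 2.04 ± 0.25 above their later means. Tlr4 (-0.94 ± 0.11), Dusp1 (-1.22 ± 0.20) and Hhex (-1.09 ± 0.20) were lower at 2 h than later. Of the 26 cell cycle genes, 18 were higher at 2 h than later. Of 12 granulocyte markers 10 were also higher at 2 h than later, with a median difference of 1.06, and their part in the differences between times was not tested.

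**Figure D4:**
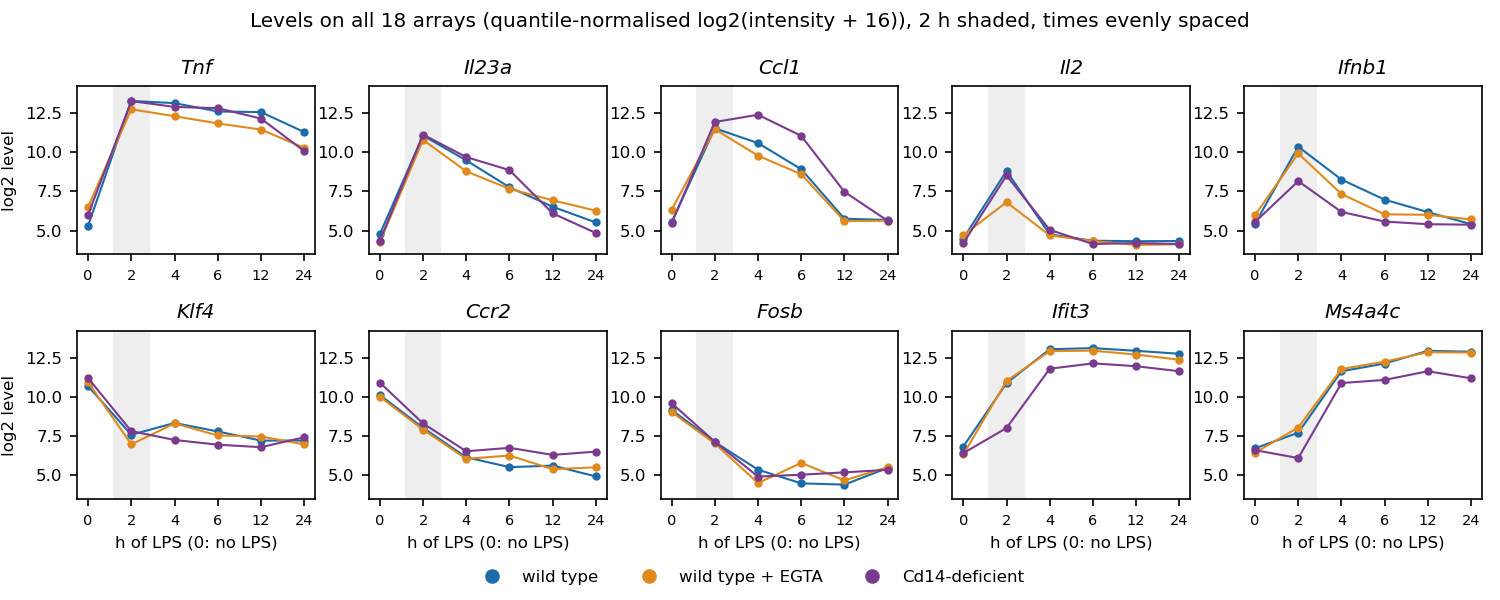
Levels (quantile-normalised log2(intensity + 16)) of 10 genes on all 18 arrays by hours of LPS, with 1 line per condition, evenly spaced times and the 2 h arrays shaded. Il2 peaked at 2 h in each condition, Klf4 had fallen by 2 h, and Ccr2 and Fosb went on falling. Ifit3 went on rising after 2 h, and Ms4a4c rose mainly after 2 h.

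The change at 2 h was also compared between conditions, as the difference of 2 differences, each of 1 array against 1. The error came from the later LPS times, and the lone arrays were assumed to vary like them. At least 2-fold rises numbered 427 in wild type cells (6.05% of genes tested), 561 with EGTA (7.95%) and 344 in Cd14-deficient cells (4.88%). Falls of that size numbered 229 (3.25%), 299 (4.24%) and 160 (2.27%). The induction differed between Cd14-deficient and wild type cells for 49 genes (0.694%), smaller in 45 (0.638%) and larger in 4 (0.0567%). Smaller and larger refer here to the signed change, 2 h minus no LPS, so a smaller one can be a fall.

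Interferon-response genes were frequent among those with a smaller change in the Cd14-deficient cells. Of the 30 listed, 20 were among the 45, and none was among the 4 with a larger change. The median change of the list was 2.54 in wild type cells, 2.65 with EGTA and 0.78 in Cd14-deficient cells, against -0.11, -0.09 and -0.06 over all genes. Ifit3 rose by 4.03 in wild type cells, 4.66 with EGTA and 1.60 without CD14, a difference of -2.42 ± 0.20 (adjusted p = 5.55e-04). Ifit1 differed by -2.26 ± 0.22, the GTPase Irgm1 by -2.10 ± 0.24, and the 2′-5′ oligoadenylate synthetase family genes Oas2 and Oasl1 by -1.97 each. Irf7, the factor that amplifies interferon production, rose by 2.18 in wild type and by 0.71 in Cd14-deficient cells (-1.47 ± 0.18). Ifnb1 itself rose by 4.90, 3.93 and 2.60, and its difference of -2.30 ± 0.73 did not pass the test (adjusted p = 0.421). Rsad2 started lower in Cd14-deficient cells, at 7.91 against 9.49 in wild type, and rose by 3.90 against 4.01.

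For NF-kB and the cytokines no such difference passed the test. None of the 11 NF-kB subunits and inhibitors, 18 proinflammatory cytokines or 12 CC chemokines passed in either direction. Of all genes 0.694% passed, so the absence of calls in lists of this size is near that share. For Tnf the difference was -0.70 ± 0.49, for Il6 0.10 ± 0.43 and for Tnfaip3 0.02 ± 0.38. Single members varied. Il33 went from 5.62 to 8.58 in wild type cells and from 5.92 to 6.33 in Cd14-deficient cells. Ccl7 went from 8.21 to 11.22 and from 7.46 to 8.77. Median changes were 3.26 and 3.09 for the cytokines and 0.91 and 1.08 for the CC chemokines. Large differences could be missed too, as Ifnb1, with changes of 4.90 and 2.60, did not pass. The absence of calls therefore does not show equal changes. Acod1 changed more in Cd14-deficient cells (6.13 against 4.70 in wild type, difference 1.43 ± 0.13, adjusted p = 7.93e-04), from an unstimulated level of 6.75 against 8.38. As the LPS concentration is not stated for the Cd14-deficient cells, a difference in dose and the lack of CD14 cannot be told apart here. In promoters, ISRE was found in 10 of 25 of the genes with a smaller change (40%), against 3.67% of genes tested.

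With EGTA 0 of 7056 genes (0%) passed the test against wild type, while 591 had an unadjusted p under 0.05 in the same limma fit. With 4 in place of 16 as the added constant 28 genes passed, with the mean of a gene's probe sets 14, and without an intensity trend 24. The largest single differences among the 12 strongest rises were those of U90926 (-2.14 ± 0.38, adjusted p = 0.0697) and Tnf (-1.73 ± 0.49, adjusted p = 0.275). Their unstimulated levels also differed, at 5.48 and 6.52 on the EGTA array against 4.38 and 5.31 in wild type.

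**Figure D5:**
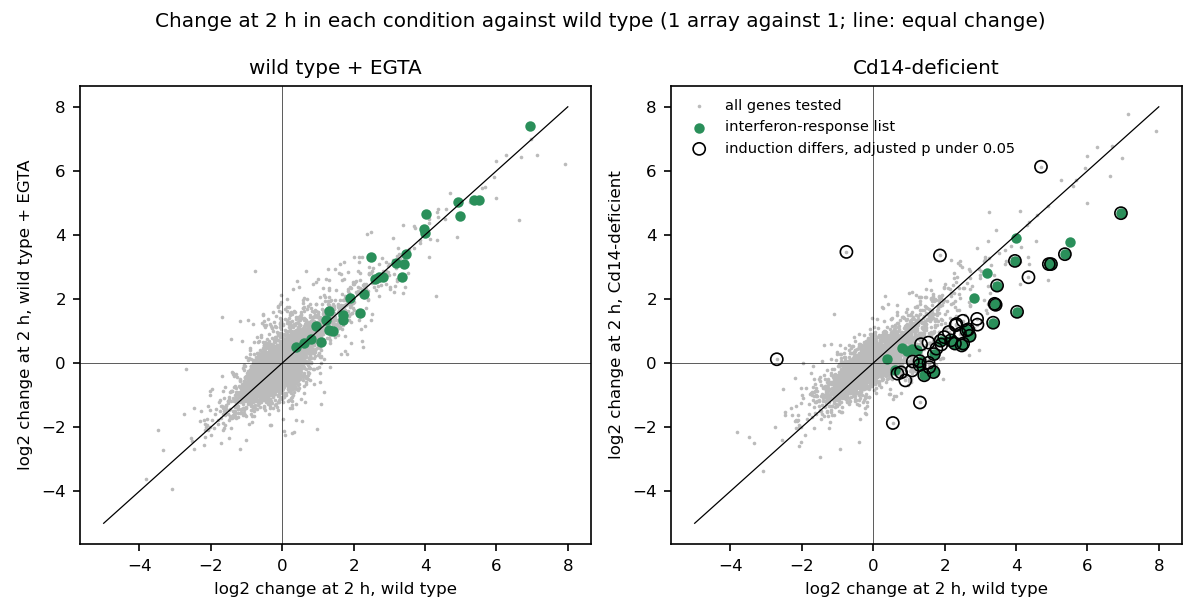
Log2 change at 2 h in cells with EGTA (left) and in Cd14-deficient cells (right) against the change in wild type cells, 1 array against 1, for all genes tested, with the line of equal change, interferon-response genes in green and genes whose induction differed marked by circles. The interferon-response genes lie near the line with EGTA and mostly below it in Cd14-deficient cells, with medians of 2.65 and 0.78 against 2.54 in wild type.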

How the data were processed

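RNA from mouse dendritic cells was hybridised to 18 Affymetrix arrays of 22690 probe sets. The authors deposited linear intensity values made with MAS5, per the submitters' processing notes. For its version, its scaling target and a genome build: not given in the sources used here. The deposited intensities were converted to log2(value + 16) and quantile normalised. The added 16 understates fold changes of dim genes. Probe sets with 1 gene in the platform annotation were used (20393; 691 had several genes and 1606 none), and 20364 matched the RefSeq table of GRCm38.p6. Each of 12394 genes was read from its brightest probe set, and 7056 were tested, those above the array median on at least 2 of 18 arrays. Tests used limma 3.58.1 in R 4.3.3 (LPS time plus condition as a block, eBayes with trend, 10 residual degrees of freedom, Benjamini-Hochberg, threshold 0.05). Differences in induction used 4 single-array terms, which left 6. The conditions served as replicates, so the number of arrays limits the precision. No arrays held identical values. The steps were tested on simulated data.

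Named genes are Cd14, the 12 largest rises and falls at 2 h, the 8 largest differences each way in the other comparisons (for differences from later times, with the same sign in all 3 conditions), the 4 lowest p-values of each of 41 lists, and 24 genes of the pathway. Others were chosen after their values were seen. The members and lists were chosen with earlier results of these data known. Alternatives changed the scaling, the added constant, the filter, the probe set, the trend, the block and the arrays.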

Additional observations from a re-analysis of the deposited data

Results flagged for a closer look

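The change at 2 h differed between Cd14-deficient and wild type cells, by an interaction term in limma, for 49 genes, and those with the largest differences are given here. As a signed value, 2 h minus no LPS, it was lower in Cd14-deficient cells for Rasa4 (-2.54), Ifit3 (-2.42), Pml (-2.42), Ifit1 (-2.26), Irgm1 (-2.10), Oas2 (-1.97), Oasl1 (-1.97) and Isg20 (-1.93). Rasa4, a regulator of Ras, was at 7.19 and 8.50 in wild type cells before and after LPS, and at 6.63 and 5.39 in Cd14-deficient cells. Pml, a component of nuclear bodies, was at 6.87 and 7.42, and at 6.52 and 4.65.

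The signed change was higher in Cd14-deficient cells for Klk1b21 (4.22), Zdhhc6 (2.82), Tsc22d1 (1.49) and Acod1 (1.43). For Zdhhc6 it was -2.70 in wild type and 0.12 in Cd14-deficient cells, so the larger movement was in wild type. In both Klk1b21 and Zdhhc6 a wild type array stood apart from the same array of the other conditions. Klk1b21, a kallikrein gene, was at 8.73 in unstimulated wild type cells, against 6.38 with EGTA and 6.11 in Cd14-deficient cells, and at 7.98, 9.26 and 9.58 at 2 h. Zdhhc6 was at 8.58, 8.12 and 8.69 without LPS and at 5.87 in wild type cells at 2 h, against 7.93 and 8.81. The 2 dimmest probe sets of Tsc22d1, near the floor at mean levels of 4.94 and 4.86, moved by 0.23 and 0.09 at 2 h, where the one used moved by 2.19 and the 3 others by 1.70 to 2.15.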

How the results depend on the processing

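The arrays limit the precision, and signal near the floor hides changes of dim genes. At 2 h against no LPS 1864 genes were higher and 789 lower with median centring, 583 and 2775 with no scaling, and 1130 lower with no term for the condition. Leaving out 1 condition or 1 of the 6 arrays gave 2085 to 2815 calls, 932 to 1106 higher and 1142 to 1709 lower (1142 without the wild type pair). A fit of the 6 arrays alone, paired by condition, called 2573. No paired analysis by replicate number was possible because the labels give none. For Cd14-deficient against wild type cells 7 genes were higher with median centring, 2 with no filter, and 29 lower with no trend. Leaving out an EGTA array gave 49 and 52 calls. For EGTA the calls were 1 with median centring and 1 with no scaling (both lower), 28 with log2(value + 4) (19 higher, 9 lower), 14 with the mean of probe sets (7 and 7) and 24 with no trend (15 and 9). Against later times every alternative gave 2653 to 3857 calls. Changes that reversed were those of Ptpn2 (0.06, mean of probe sets) and, with median centring, Psmb8 (0.22), Ncl (0.19), Npm1 (0.26), Fcgr3 (0.13), Cd68 (0.22) and Csf1r (0.15). The cause of these shifts was not tested. Differences for Zdhhc6, Tsc22d1 and Isg20 lost the call with no filter and with no trend, Zdhhc6 and Isg20 also with log2(value + 64), and Tsc22d1 with no scaling and with the mean of probe sets.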
